A study of Homo sapiens with 6 samples.

Results

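The expression of 10 genes that restrain or report Wnt signalling was followed in SW480 cells. These were AXIN2, NKD1, NOTUM, RNF43, ZNRF3, APCDD1, DKK1, SP5, TCF7 and LEF1. They were taken by symbol from a table of 60664 genes, and all 10 members were found there. SW480 is an established human cell line from a colorectal adenocarcinoma, here of wild-type genotype in every library per the labels. Cells received either buffer (3 libraries) or Amuc_0904 (3 libraries), and total RNA was sequenced. Amuc_0904 is written like a locus tag of Akkermansia muciniphila, a gut bacterium, and the labels say nothing more of the preparation, its dose or the time of exposure. They do not say whether replicates were separate cultures, so each p-value measures only the spread between these libraries, which may be technical. All libraries come from 1 cell line.

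In canonical Wnt signalling, a destruction complex built on the scaffolds APC and axin marks beta-catenin for degradation until a Wnt ligand engages Frizzled and LRP receptors. Stabilised beta-catenin then binds TCF and LEF factors on DNA and activates their target genes, and many of those targets feed back to damp the pathway. SW480 cells carry a truncated APC protein and are known for constitutive beta-catenin activity, so feedback genes are active in them without added ligand.

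Values are in TPM, a share of each library's transcripts corrected for transcript length, so levels of different genes can be set side by side. A log2 fold change is the Amuc_0904 mean minus the buffer mean of log2(TPM + 1), fitted with limma over the 14421 genes with at least 1 TPM in at least 3 libraries, and an adjusted p under 0.05 (Benjamini-Hochberg over those genes) is called past the threshold. All 10 members passed the filter on low values, and the lowest single value among them was 10.2 TPM.

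Genes at 1 TPM or more numbered between 14481 and 14586 in buffer libraries and between 14244 and 14420 in Amuc_0904 libraries, so fewer were listed in each of the latter, and the part of this difference in the results below was not tested. Their read depth is unknown, since TPM keeps no count. A trend with base composition ran with the groups. For each library, the deviation of log2(TPM + 1) from the gene's mean over the 6 libraries was fitted on transcript GC content. The sign of this slope is thus relative to the other libraries. It lay between 0.00451 and 0.0931 log2 units per 10 percentage points of GC in buffer libraries. In Amuc_0904 libraries it lay between -0.112 and 0.00213. The culture was checked against markers. EPCAM, KRT8, KRT18, KRT19, CDH1, CDX2 and VIL1, the epithelial list, summed to between 7907 and 8148 TPM in buffer and between 7092 and 7380 TPM in Amuc_0904 libraries. All 6 tested genes of that list had negative log2 fold changes, and 1 of them, CDH1, was past the threshold (limma adjusted p = 0.0444). Of all tested genes 62.5% had negative log2 fold changes, and 0.999% were past the threshold in the lower direction. CDH1 did not pass when any 1 library was left out (0.0586 to 0.142) or with the GC trend removed (0.0558). The 8 leukocyte markers summed to between 3.89 and 4.81 TPM in buffer and between 5.71 and 6.27 TPM in Amuc_0904 libraries, with PTPRC, which defines leukocytes, at 0 in all 6. The 8 fibroblast markers summed to at most 4.16 TPM in any library, with DCN at 0 throughout, and the 6 endothelial markers to at most 0.880 TPM. The part of the epithelial and leukocyte marker differences in the results on the 10 genes was not tested. In bulk RNA, fewer cells expressing a gene and less RNA per cell cannot be told apart.

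Of the 10 genes 9 had lower mean levels in cells given Amuc_0904, and DKK1 was the exception. SP5, a transcription factor gene, was the 1 member past the threshold and fell to 0.713 times its buffer level. NKD1 had the largest difference in size, at 0.601 times its buffer level, and was not past it. For 8 of the 10 genes every Amuc_0904 library lay below every buffer library, a pattern that 20.1% of all tested genes showed, and for 0 of the 10 did every Amuc_0904 library lie above, against 7.00% of tested genes. Of all tested genes 1.37% were past the threshold, 0.999% in the lower and 0.368% in the higher direction, beside 1 and 0 of the 10 members. At an unadjusted limma p under 0.05, 9 members were lower and 1 was higher, against 16.3% and 4.49% of tested genes. The median log2 fold change of the 10 genes was -0.33, beside -0.06 over all tested genes. The 10 genes were chosen with earlier results of these data known, so these shares and medians cannot test them as a set.

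**Figure D1:**
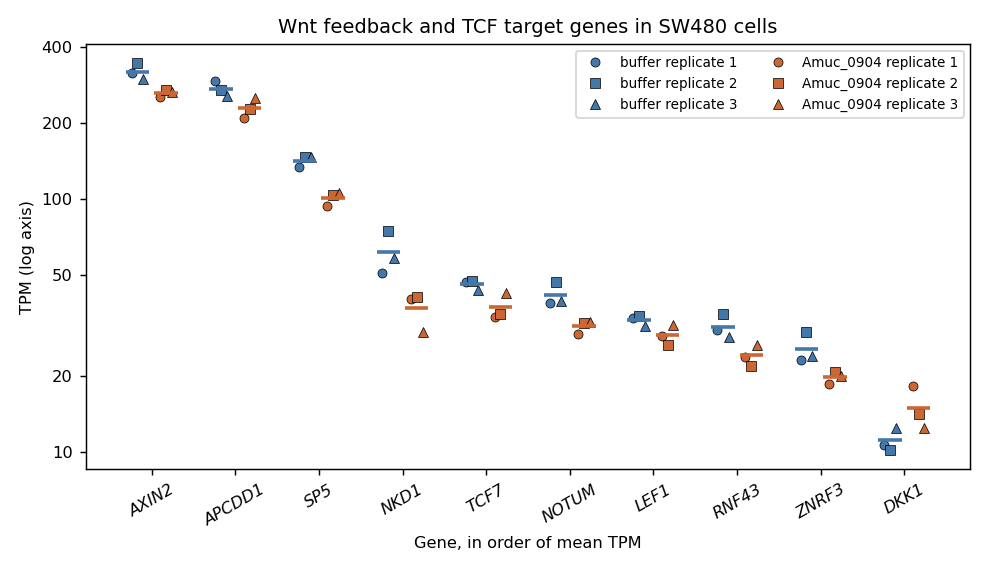
TPM (log axis) of the 10 genes in each library, in order of mean level, with buffer in blue and Amuc_0904 in orange. Symbols mark the replicates and horizontal bars the group means (3 libraries each). Orange points lie below all blue points for 8 genes, and the groups overlap for LEF1 and DKK1.

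Among the scaffolds and inhibitors inside the cell, AXIN2, which encodes an axin-type scaffold of the destruction complex and is a standard reporter of beta-catenin activity, was the most abundant of the 10 genes. It stood at 315, 344 and 298 TPM in buffer replicates 1, 2 and 3, and at 254, 271 and 264 TPM in Amuc_0904 replicates 1, 2 and 3. The groups did not overlap, and the Amuc_0904 libraries lay closer together. Means were 319 ± 23.1 and 263 ± 8.19 TPM (SD, n = 3 each), a log2 fold change of -0.27 with a 95% interval from -0.43 to -0.12 (limma adjusted p = 0.0774).

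NKD1 encodes naked cuticle homologue 1, which binds Dishevelled and restrains Wnt signalling. Its values were 51.2, 74.8 and 58.6 TPM in buffer and 40.1, 40.9 and 29.9 TPM in Amuc_0904 libraries. Buffer replicate 2 was the highest and Amuc_0904 replicate 3 the lowest, and the groups did not overlap. With 61.5 ± 12.1 and 37.0 ± 6.13 TPM (SD, n = 3 each), NKD1 also had the widest relative spread among the buffer libraries of the 10 genes. Its log2 fold change was -0.72, with a 95% interval from -1.08 to -0.35 (limma adjusted p = 0.0651).

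The ligand and receptor end of the pathway is restrained by secreted and membrane proteins. NOTUM, a secreted enzyme that removes the palmitoleate lipid from Wnt ligands, was at 38.7, 46.9 and 39.5 TPM in buffer and at 29.2, 32.4 and 32.6 TPM in Amuc_0904 libraries. All 3 Amuc_0904 values were below all 3 buffer values. The log2 fold change was -0.39, with a 95% interval from -0.60 to -0.19 (limma adjusted p = 0.0740).

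RNF43 and ZNRF3 are related membrane ubiquitin ligases that take Frizzled receptors off the cell surface, and R-spondins block them. RNF43 was at 30.4, 35.0 and 28.4 TPM in buffer and at 23.8, 21.9 and 26.6 TPM in Amuc_0904 libraries. ZNRF3 was at 23.2, 29.7 and 23.9 TPM in buffer and at 18.6, 20.8 and 19.9 TPM in Amuc_0904 libraries. For both genes the groups did not overlap and buffer replicate 2 was the highest library. Their log2 fold changes were close, -0.36 for RNF43 (95% interval from -0.60 to -0.13) and -0.35 for ZNRF3 (from -0.59 to -0.11), and neither passed (limma adjusted p = 0.106 and 0.118). The ratio of RNF43 to ZNRF3 within a library was 1.23 ± 0.0753 in buffer and 1.22 ± 0.147 in Amuc_0904 libraries (SD, n = 3 each), and its ranges overlapped.

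APCDD1, a membrane glycoprotein that binds Wnt and LRP5 and inhibits the pathway, was second to AXIN2 in level. Its values were 292, 270 and 256 TPM in buffer and 210, 227 and 251 TPM in Amuc_0904 libraries. Amuc_0904 replicate 3 lay only slightly under buffer replicate 3. The log2 fold change was -0.25, with a 95% interval from -0.43 to -0.07 (limma adjusted p = 0.136).

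DKK1 encodes Dickkopf 1, a secreted antagonist that binds LRP5 and LRP6, and it was the least abundant of the 10 genes. It was listed at 10.7, 10.2 and 12.5 TPM in buffer and at 18.3, 14.1 and 12.5 TPM in Amuc_0904 libraries. Amuc_0904 replicate 1 was the highest, while Amuc_0904 replicate 3 lay within the buffer range, so the groups overlapped. The log2 fold change was 0.38, with a 95% interval from 0.05 to 0.70 (limma adjusted p = 0.181). Without Amuc_0904 replicate 1 it was 0.23.

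Among the transcription factor genes, SP5 encodes a zinc finger factor of the Sp family that is a direct target of beta-catenin and dampens other target genes. It was at 134, 147 and 146 TPM in buffer and at 93.7, 104 and 106 TPM in Amuc_0904 libraries. The groups lay far apart relative to their spread, with means of 142 ± 7.55 and 101 ± 6.64 TPM (SD, n = 3 each). The log2 fold change was -0.49, with a 95% interval from -0.65 to -0.32 (limma adjusted p = 0.0227). The adjusted p was between 0.0432 and 0.113 when each library was left out in turn, and 4 of these libraries ended the call (buffer replicates 2 and 3, with 0.113 and 0.0608, and Amuc_0904 replicates 1 and 2, with 0.0825 and 0.0632). It also ended when the GC trend was removed.

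TCF7 and LEF1 encode DNA-binding partners of beta-catenin from the TCF family, and both are themselves TCF targets. TCF7 was at 47.2, 47.6 and 43.6 TPM in buffer and at 34.2, 35.1 and 42.5 TPM in Amuc_0904 libraries. Amuc_0904 replicate 3 stood above the other 2 Amuc_0904 libraries and just under the lowest buffer library. LEF1 was at 34.0, 34.6 and 31.5 TPM in buffer and at 28.7, 26.5 and 31.9 TPM in Amuc_0904 libraries, and here Amuc_0904 replicate 3 exceeded buffer replicate 3. The log2 fold change was -0.31 for TCF7 (95% interval from -0.52 to -0.09, limma adjusted p = 0.120). For LEF1 it was -0.20 (95% interval from -0.39 to -0.00145, limma adjusted p = 0.237). The other TCF family genes were scarcer: TCF7L2 averaged 9.52 and 6.70 TPM in buffer and Amuc_0904 libraries, and TCF7L1 3.31 and 2.17 TPM, neither past the threshold (limma adjusted p = 0.178 and 0.148).

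SP5 and DKK1, which stood on opposite sides of 0, are shown with the 250 bases before their RefSeq start (GRCh38.p14), to set their TCF letters side by side. TCF and LEF proteins bind a short core, searched here on both strands as ATCAAAG and, with other opening letters, as TTCAAAG, then as AACAAAG, then as TACAAAG. Capitals mark each match, and no match overlaps another. The SP5 window is chr2:170715087-170715336 on the plus strand, and the DKK1 window is chr10:52314031-52314280 on the plus strand.
SP5: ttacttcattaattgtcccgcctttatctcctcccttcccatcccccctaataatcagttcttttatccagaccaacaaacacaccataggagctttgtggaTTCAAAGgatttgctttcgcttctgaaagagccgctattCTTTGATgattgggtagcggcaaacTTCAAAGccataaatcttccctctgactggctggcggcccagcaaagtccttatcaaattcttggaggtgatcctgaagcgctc
DKK1: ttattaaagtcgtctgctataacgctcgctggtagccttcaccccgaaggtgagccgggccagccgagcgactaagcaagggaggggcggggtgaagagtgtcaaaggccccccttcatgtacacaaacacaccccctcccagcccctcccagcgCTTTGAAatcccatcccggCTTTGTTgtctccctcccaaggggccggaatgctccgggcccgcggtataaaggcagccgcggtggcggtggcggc

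The SP5 window held 3 matches, whose leftmost letters lay 148, 109 and 84 bases before the start. At least 3 matches were found in 0.122% of the 35116 windows of that length in the RefSeq table. The DKK1 window held 2 matches, at 95 and 76 bases before the start, and at least 2 were found in 1.21% of windows. Windows were found for 6 of the 10 genes (SP5, DKK1, LEF1, TCF7, RNF43 and APCDD1). Of the others in that set, 1 of the TCF7 windows held 1 match, while those of LEF1, RNF43 and APCDD1 held 0, and 12% of all windows held at least 1. The letters searched are poor in G and C, and the windows differed in GC content. It was 45.6% for SP5 and 62.8% for DKK1, and ran from 45.2% for 1 RNF43 window to 77.2% for APCDD1. The shares of windows take no account of this. A match is only a stretch of letters, and one was found both for the gene past the threshold and for the gene with the positive log2 fold change.

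GC content differed among the 10 genes, and 9 of them lay above the tested genes' median of 49.2%. NOTUM (66.5%) and SP5 (66.2%) were the richest, above 98.0% and 97.8% of tested genes, and DKK1 was the poorest at 43.5%. With each library's GC trend removed, the log2 fold change went from -0.39 to -0.15 for NOTUM (limma adjusted p = 0.357) and from -0.49 to -0.25 for SP5 (limma adjusted p = 0.165). NKD1 went from -0.72 to -0.63 and AXIN2 from -0.27 to -0.17, with limma adjusted p of 0.143 and 0.175. DKK1 was at 0.38 both before and after. The same 9 genes stayed negative, and the median of the 10 went from -0.33 to -0.18, beside -0.00 over all genes. Among the 9, the intervals of AXIN2, NKD1, RNF43, ZNRF3 and SP5 excluded 0. Each interval is for a single gene and is not adjusted for the number of genes tested. After that adjustment 0 of the 10 members were past the threshold, RNF43 and ZNRF3 included (limma adjusted p = 0.180 and 0.230).

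**Figure D2:**
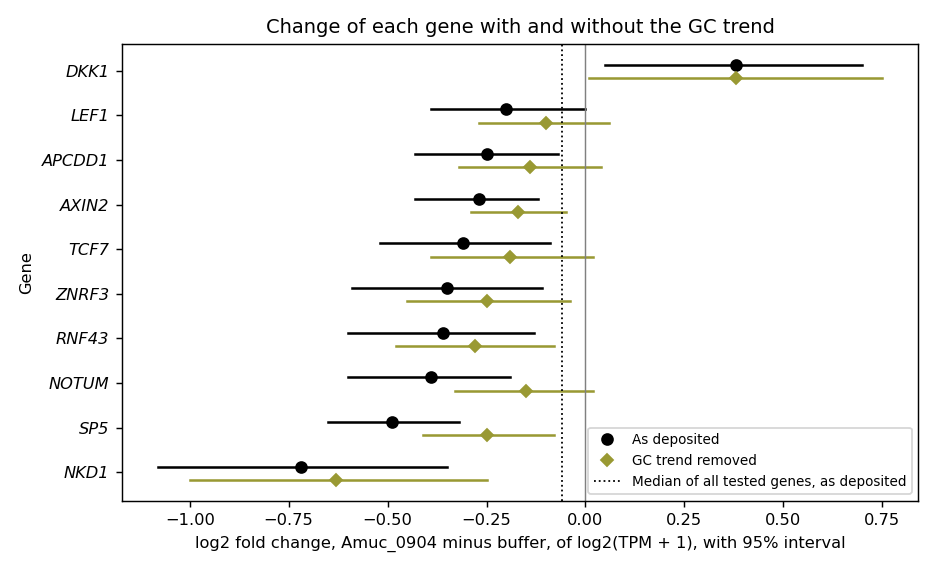
Log2 fold change (Amuc_0904 minus buffer, x axis) of each gene with its 95% interval, as deposited (black circles) and with the GC trend removed (olive diamonds); the dotted line is the median of all tested genes, -0.06. NKD1 is the lowest at -0.72, DKK1 is the only gene above 0, and SP5 and NOTUM move most between the settings.

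Within the groups, the libraries that stood high or low were often the same for several of the 10 genes. Buffer replicate 2 was the highest of all 6 libraries for 8 of the 10 genes and the lowest for DKK1. Amuc_0904 replicate 1 was the lowest for 6 genes and the highest for DKK1. Amuc_0904 replicate 3 was the highest of its group for 6 genes (NOTUM, RNF43, APCDD1, SP5, TCF7 and LEF1) but the lowest for NKD1 and DKK1. The summed level of the 10 genes was 976, 1039 and 937 TPM in buffer replicates 1 to 3 and 751, 794 and 817 TPM in Amuc_0904 replicates 1 to 3. These sums weigh the most abundant genes, AXIN2 and APCDD1, most. The steepest positive GC slope was that of buffer replicate 2 (0.0931), and the steepest negative slope that of Amuc_0904 replicate 3 (-0.112). The part of the GC trend in this pattern was not tested.

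**Figure D3:**
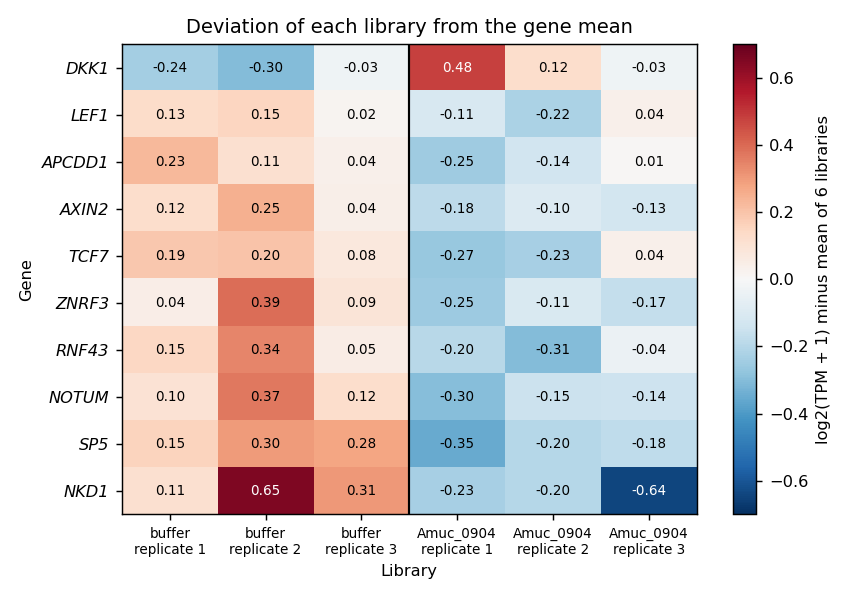
Deviation of log2(TPM + 1) in each library (columns) from the mean of the 6 libraries for each gene (rows), red above and blue below that mean. The 9 other genes are positive in all 3 buffer libraries, while DKK1 is negative there; the deviations of NKD1 run from -0.64 to 0.65.

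By group means, the order of levels was the same in both groups except that NKD1 and TCF7 changed places. AXIN2, APCDD1 and SP5 ranked in that order in 6 of 6 libraries, their ranges did not overlap in either group, and DKK1 was last in 6 of 6. In the middle, NKD1 exceeded TCF7 in 5 of 6 libraries, and their ranges overlapped in Amuc_0904 but not in buffer libraries. In Amuc_0904 replicate 3, NKD1 (29.9 TPM) also lay below NOTUM (32.6 TPM) and LEF1 (31.9 TPM). LEF1 exceeded RNF43 in 5 of 6, with overlapping ranges in both groups, so the order of LEF1 and RNF43 is not beyond their spread. Ranges of TCF7 and NOTUM and of RNF43 and ZNRF3 overlapped in buffer, and those of NOTUM and LEF1 in Amuc_0904 libraries.

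Ratios between genes within a library, which cancel the library's scale, were chosen after the levels had been seen and carry no test. NKD1 relative to AXIN2 was 0.163, 0.218 and 0.197 in buffer and 0.158, 0.151 and 0.113 in Amuc_0904 libraries, without overlap. SP5 relative to AXIN2 was 0.447 ± 0.0359 in buffer and 0.385 ± 0.0162 in Amuc_0904 libraries, also without overlap. These ratios keep the GC trend. Once it was removed, the log2 fold changes of SP5 and AXIN2 were -0.25 and -0.17, against -0.49 and -0.27 before. DKK1 relative to AXIN2 was 0.0341, 0.0297 and 0.0421 in buffer and 0.0719, 0.0519 and 0.0474 in Amuc_0904 libraries, higher in every one of the latter. TCF7 relative to LEF1 was 1.38 ± 0.00592 and 1.28 ± 0.0774, without overlap. NOTUM and APCDD1 relative to AXIN2 had overlapping ranges (SD, n = 3 each).

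The genes most like AXIN2 were sought among 9857 genes with a symbol and a mean of at least 5 TPM, as those with the smallest root mean square difference between centred log2 profiles over the 6 libraries. They included CUX1 (0.0110 log2 units), REEP6 (0.0190), KMT5A (0.0205) and ZC3H3 (0.0235). The closest of the other 9 genes was ZNRF3 at 0.0762, in place 796. For NKD1 the closest were LTBP3 (0.0993), PTPRU (0.102), FAM98C (0.111), ZNF580 (0.111) and KLC1 (0.113), and ZNRF3 was again the closest of the 10, at 0.243, in place 383. With 9 genes set against so many candidates, these places say nothing particular of the 10.

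The rest of the pathway was read by role from lists of its known genes, also chosen with earlier results of these data known. Of the destruction complex and beta-catenin list, 15 of 16 genes were tested and 0 passed in limma in either direction (4 were lower and 0 higher at an unadjusted p under 0.05), and the median log2 fold change was -0.08. CTNNB1, which encodes beta-catenin itself, was at 476 ± 12.9 and 452 ± 31.2 TPM (SD, n = 3 each) in buffer and Amuc_0904 libraries, with overlapping ranges, and CSNK1A1, the kinase that primes beta-catenin, at 165 and 157 TPM. Of the TCF partners, coactivators and corepressors, 16 of 17 were tested, 0 passed in limma (7 were lower and 0 higher at an unadjusted p under 0.05) and all 16 were negative, with a median of -0.23. With the GC trend removed this median was -0.13, and CTNNBIP1, TLE1 and TLE5 were positive (0.07, 0.03 and 0.08). In that list the corepressor gene TLE5 was at 160 and 153 TPM and CTBP1 at 120 and 90.5 TPM (limma adjusted p = 0.600 and 0.126). Over all tested genes 62.5% were negative, and 0.999% and 0.368% were past the threshold in the lower and higher direction. At an unadjusted limma p under 0.05 the shares were 16.3% lower and 4.49% higher.

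Of 28 other TCF target genes 23 were tested, 1 fell and 0 rose, with a median of -0.20, where 0.999% and 0.368% of all tested genes fell and rose. The gene that fell was ASCL2, which encodes a factor that maintains the intestinal stem cell state, at 39.0, 41.0 and 34.5 TPM in buffer and 19.7, 19.4 and 15.0 TPM in Amuc_0904 libraries (log2 fold change -1.05, limma adjusted p = 0.00882). It stayed past the threshold with the GC trend removed, at -0.76 (limma adjusted p = 0.0159), and without each single library except buffer replicate 2, which took it just out of the threshold. Without a filter on low TPM ASCL2 did not pass (limma adjusted p = 0.0912). At an unadjusted limma p under 0.05, 9 of the 23 were lower and 3 higher, against 16.3% and 4.49% of tested genes. For 10 of the 23 every Amuc_0904 library lay below every buffer library, against 20.1% of tested genes. For 3, MYC, JUN and PLAUR, named after their values were seen, every Amuc_0904 library lay above every buffer library, as for 7.00% of tested genes. Means in buffer and Amuc_0904 libraries were 154 and 179 TPM for MYC, 21.2 and 25.3 TPM for JUN, and 42.5 and 50.2 TPM for PLAUR, which encodes the urokinase receptor. None of these passed (limma adjusted p = 0.133, 0.193 and 0.0989), but with the GC trend removed PLAUR did, at a log2 fold change of 0.36 (limma adjusted p = 0.0265). In 16 of the 17 alternative fits 0 genes of this list passed in the higher direction. LGR5, a stem cell receptor, was listed at 0 or at most 0.0200 TPM. Of 20 other Wnt inhibitors 8 were tested and 0 passed in limma (5 were lower and 0 higher at an unadjusted p under 0.05), with a median of -0.30. The most abundant of these were SFRP5, a secreted Frizzled-related protein, at 34.3 and 36.5 TPM, and TPBG at 16.4 and 13.1 TPM. Of 23 receptor and transducer genes 16 were tested, 1 fell and 0 rose, beside the same 0.999% and 0.368% of all tested genes, with a median of -0.30. At an unadjusted limma p under 0.05, 9 were lower and 0 higher, against 16.3% and 4.49% of tested genes. The gene that fell was the Frizzled receptor FZD7, at 16.3 ± 1.63 and 10.9 ± 0.822 TPM (SD, n = 3 each; limma adjusted p = 0.04995). FZD7 did not pass when any 1 library was left out (adjusted p from 0.0653 to 0.169) or with the GC trend removed (0.0795). With that trend removed, the median was -0.09 for the destruction complex list and -0.09 for the other TCF target genes. It was -0.14 for the other Wnt inhibitors and -0.19 for the receptors and transducers, beside -0.00 over all tested genes.

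**Figure D4:**
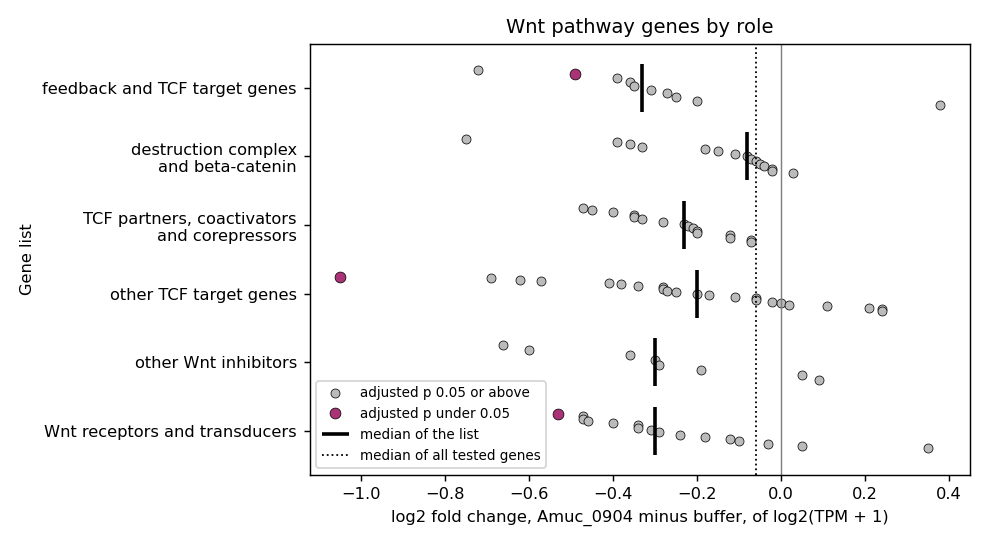
Log2 fold change (x axis) of each tested gene in 6 lists of Wnt pathway genes (rows), with purple points for adjusted p under 0.05, black bars for list medians and a dotted line for the median of all tested genes. SP5, ASCL2 and FZD7 are past the threshold, and every list median lies left of 0, from -0.33 to -0.08.

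Some of the 10 genes share their locus with others, and reads from a stretch that genes share may have been counted for either, on opposite strands too since the strand protocol is unknown. Spans of whole genes were compared, not exons. In GENCODE 29 (GRCh38) SP5 (ENSG00000204335, chromosome 2, 170715351 to 170718078, plus strand), NOTUM (ENSG00000185269, chromosome 17, 81952507 to 81961840, minus strand) and APCDD1 (ENSG00000154856, chromosome 18, 10454628 to 10489948, plus strand) overlap no other gene. AXIN2 (ENSG00000168646, chromosome 17, 65528563 to 65561647, minus strand) overlaps a gene on its own strand that was at 4.18 TPM in buffer. NKD1 (ENSG00000140807, chromosome 16, 50548330 to 50649249, plus strand) overlaps 1 gene on its own strand and 2 on the other, none above 1.12 TPM in any library. TCF7 (ENSG00000081059, chromosome 5, 134114711 to 134151865, plus strand) overlaps the far more abundant SKP1 on the other strand, at 833 TPM in buffer and 898 TPM in Amuc_0904 libraries. RNF43 (ENSG00000108375, chromosome 17, 58352500 to 58417595, minus strand) overlaps 2 genes on its own strand, SUPT4H1, at 98.9 and 102 TPM, and AC004687.2, at 15.16, 15.29 and 14.52 TPM in buffer and 10.46, 12.49 and 11.90 TPM in Amuc_0904 libraries, without overlap of the groups. It also overlaps TSPOAP1-AS1 on the other strand, at 3.94 and 3.13 TPM. DKK1 (ENSG00000107984, chromosome 10, 52314296 to 52318042, plus strand), LEF1 (ENSG00000138795, chromosome 4, 108047545 to 108168956, minus strand) and ZNRF3 (ENSG00000183579, chromosome 22, 28883592 to 29057487, plus strand) each overlap an antisense gene, at 1.82, 1.31 and 0.167 TPM in buffer. In Amuc_0904 libraries these were at 1.77, 1.79 and 0.177 TPM. ZNRF3 also overlaps 1 gene on its own strand, ZNRF3-IT1, at 0.1 TPM in buffer and 0 TPM in Amuc_0904 libraries.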

How the data were processed

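The authors deposited 1 table of TPM values for 6 libraries, rounded to 2 decimals, with RSEM named for quantification per the labels. HISAT2, StringTie, edgeR and the mouse build GRCm38.p6 are also named, without roles, per the submitters' processing notes, while the gene identifiers are human Ensembl ones. Aligner settings and strand are not given in the sources used here. Groups followed the titles and treatment labels.

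Values were taken as log2(TPM + 1). Genes with at least 1 TPM in at least 3 libraries (14421) entered a linear model in limma 3.58.1 under R 4.3.3 (moderated variances with a trend, two-sided, Benjamini-Hochberg adjustment, threshold 0.05, 95% intervals). The intervals are per gene and are not adjusted for the number of genes tested. A count test could not be used, since TPM keeps no depth. GC content and length were those of the longest GENCODE 29 transcript, present for 99.0% of tested genes, and trends were removed by loess (span 0.3). The workflow was tested on simulated data. Figures were drawn with matplotlib 3.10.9.

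The members and lists were chosen with earlier results of these data known. All 10 members were named. Of the other lists, genes past the threshold were named, or else up to 2 tested genes with the highest mean. Other genes given, the ratios and the motif letters were chosen after values were seen. Alternatives changed the pseudocount (0.1), the filter (none, or 5 TPM), the scaling (median, quantile, or without ribosomal protein and mitochondrial genes), the GC and length trends, a replicate block, library weights, the threshold (0.01) and each library left out. A gene that the likeness rule named is not reported here.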

Additional observations from a re-analysis of the deposited data

How the results depend on the processing

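The sign of each of the 10 genes was the same under all 17 alternative fits, and of the 170 values so obtained 159 stayed on their side of the threshold, 8 lost the call (all SP5) and 3 gained it (NKD1 at a filter of 5 TPM, adjusted p = 0.0375, and NOTUM there and with library weights, 0.0474 and 0.0496). The number of genes called, 197, was 9 with no filter on low TPM, 432 with a filter of 5 TPM, 85 with libraries centred on their median, 102 after quantile normalization, 117 with the GC trend removed, 90 with the length trend removed, 427 with library weights, 29 at an adjusted p of 0.01, and from 33 to 110 without each library in turn. The share of calls that were lower, 73.1%, was 49.4% after centring, 54.9% after quantile normalization, 48.9% and 34.2% with the length and GC trends removed, and 22.2% of the 9 calls with no filter. Members lower, 1 at first, numbered 3 with a filter of 5 TPM, 2 with library weights, 0 with no filter, 0 with centring, 0 with the GC trend removed, 0 at an adjusted p of 0.01, and 0 to 1 without each library. Members higher numbered 0 under each of these. The median of the members was -0.18 with the GC trend removed.

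The labels do not say whether replicate numbers pair the libraries. Deviations from the group means correlated at -0.03, 0.08 and -0.09 for numbers 1, 2 and 3. With 3 libraries per group these values cannot show whether the libraries were paired. With the replicate block 80 genes were called. With the replicate block and the GC trend removed 14 genes and 0 members were called, with a member median of -0.18. Genes near 0 changed sign: CTNNB1 was at 0.00 with centring and 0.01 with the length trend removed, CSNK1A1 at 0.02 in both, and TLE5 at 0.01 in both and at 0.08 with the GC trend removed, with or without the replicate block. Of the other genes called, ASCL2 kept its call in 15 of the 17 fits, FZD7 in 3 and CDH1 in 3. The cause of these shifts was not tested. Depth is unknown, so how far it limits the members' calls cannot be given.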

Other observations

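TCF core letters were also counted in the promoter windows of all tested genes with a window. The 9177 tested genes whose windows held 0 matches had a median log2 fold change of -0.06, the 1002 with 1 match -0.05, the 68 with 2 matches -0.02 and the 6 with 3 or more -0.08. Every Amuc_0904 library lay below every buffer library for 20.8% of genes with 0 matches and for 20.6% of genes with 1. The 6 genes with at least 3 matches were SP5, CD74, CLDN11, CRADD, INPP4B and SPRY2, and SP5 was the 1 of them past the threshold. These values are a description with no test, on a split chosen after the SP5 window had been seen, and the last set includes SP5 itself.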
